A study of Mus musculus with 24 samples.

Results

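Adam8 and 8 further genes of cell-surface shedding and of the extracellular matrix were measured in microglia, the resident macrophages of the brain. The 9 genes were taken by name: the membrane proteases Adam8, Adam9, Adam10, Adam17 and Mmp14, the secreted protease Adamts1, the protease inhibitor Timp2, the hyaluronan receptor Cd44 and the matrix protein Fn1. They are 9 of the 35519 genes to which the deposited transcripts were summed, and all 9 are among the 9803 that passed the filter on low counts. The members were selected on earlier values of these data, the difference between phagocytosis and control among them, so the values of that comparison describe these genes and support nothing about them. Whether genotype values also took part in the choice is not known.

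The mice were C57BL/6, female or male, and wild type (WT) or NL4-/-, which lack neuroligin-4, a synaptic adhesion protein; the labels give no age. Microglia were sorted from whole brain as Ly6C-CD11b+Fcrls+ cells, and each library was made by Smart-Seq2 from 1000 cells. Each of the 4 combinations of sex and genotype had 2 control libraries and 4 phagocytosis libraries, 24 in all; the design text gives 5 replicates for a phagocytosis group, of which 4 are analysed here. What the cells of the phagocytosis groups took up, and whether in the animal or in culture, is not in the labels. The design text calls the replicates biological, and nothing says how animals were divided among libraries or whether any were pooled. The neuroligin-4 gene itself is not analysed here, so the knockout was not checked from these values.

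ADAM proteases are membrane-anchored enzymes that cut the outer parts of other membrane proteins off the cell surface, a step called shedding. Adam17 is the main sheddase of tumour necrosis factor and Adam10 cuts Notch receptors, while Adam8 and Adam9 are related enzymes with their own substrates. Mmp14 is a membrane-bound matrix metalloproteinase that cuts collagen and activates pro-Mmp2, a step in which Timp2 takes part as a bridging inhibitor. Cd44 binds hyaluronan, a sugar polymer of the matrix, and its outer part can itself be shed by Adam10 and Mmp14. Fn1 encodes fibronectin, an adhesive protein bound by integrins.

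Library totals ran from 421107 to 1013797 expected reads. Levels are given as CPM, reads scaled to a library total of 1e+06, with TMM normalisation, genes at low levels rest on few reads, and intervals cover counting error only. The labelled cell type was checked on 11 microglial markers, such as P2ry12 and Tmem119. Their summed level was 27000 to 38200 CPM of the library total in control and 14700 to 35900 CPM in phagocytosis libraries, and 0 of the 11 had a higher mean in phagocytosis. In 3 control libraries the make-up stood apart: male WT control 2 held 23.22%, female NL4-/- control 1 22.13% and male NL4-/- control 1 21.38% of its reads in 12 predicted genes built of satellite repeat, against 1.52 to 16.26% in the other libraries. For genes of the lists given with values, calls lost without these 3 libraries are also reported. For members, some values without them are given, but not whether their state calls were kept.

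Adam8 and Cd44 were the genes of the list with separate levels in the states. Adam8 lies on chromosome 7 (139978932 to 139992562, minus strand, GRCm38) and Cd44 on chromosome 2 (102811141 to 102901665, minus strand). The 250 bases before their start sites are shown because these were the members that differed most together between the states. They come from RefSeq (GRCm38.p6), run 5′ to 3′ on the gene's strand and stand at chr7:139992563-139992812 and chr2:102901666-102901915, and capitals mark matches to the motifs searched.
Adam8 promoter: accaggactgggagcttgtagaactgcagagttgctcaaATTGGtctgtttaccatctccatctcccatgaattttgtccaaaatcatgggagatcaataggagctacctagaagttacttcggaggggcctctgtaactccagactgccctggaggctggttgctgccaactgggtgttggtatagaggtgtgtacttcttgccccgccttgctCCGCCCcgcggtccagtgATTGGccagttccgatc
Cd44 promoter: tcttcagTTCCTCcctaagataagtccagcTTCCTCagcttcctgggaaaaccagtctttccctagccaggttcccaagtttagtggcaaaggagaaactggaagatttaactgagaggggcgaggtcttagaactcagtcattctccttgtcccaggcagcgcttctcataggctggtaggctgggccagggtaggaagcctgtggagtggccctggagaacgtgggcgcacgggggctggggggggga

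An entry with 250 bases before and 50 after the start site was found for 7 of the 9 genes (Adam8, Adam10, Adam17, Adamts1, Mmp14, Timp2 and Cd44). On both strands, GGGCGG, the GC box, was in 7 of these 7 windows and in 35.7% of all 32851 promoter windows of that length. CCAAT was in those of Adam8, Adam10, Mmp14 and Timp2, and in 37.4% of all. The Adam8 capitals are CCAAT at 211 and 17 bases and the GC box at 35 bases before the start, all on the opposite strand. GAGGAA, the core bound by the myeloid factor PU.1, was in those of Cd44 (the 2 capitals shown, on the opposite strand) and Adam10, and in 28.3% of all windows, while TATAAA was in that of Adamts1 and in 13.6% of all. TGANTCA (AP-1) and TTCNNNGAA (STAT-like) were in 0 of the 7 windows, and in 7.81% and 8.3% of all; no match says only that these letters are not in this window.

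Adam8 had the highest level of the 9 genes in phagocytosis libraries and a middle one in control. Its control levels were 152 and 55.2 CPM in WT females, 31.5 and 35.5 CPM in NL4-/- females, 111 and 90.8 CPM in WT males and 43.7 and 31.2 CPM in NL4-/- males. In phagocytosis it stood at 1380, 1270, 975 and 1140 CPM in female WT and at 1260, 689, 690 and 450 CPM in female NL4-/-. In males it stood at 980, 661, 1460 and 366 CPM in WT and at 1150, 454, 793 and 1810 CPM in NL4-/-. Every phagocytosis library was above every control library, and the spread inside the phagocytosis group was wide, 970 ± 410 CPM (SD, n = 16) against 68.9 ± 44.7 CPM (SD, n = 8) in control. The fitted difference, averaged over the 4 combinations of sex and genotype, was 15.8-fold (log2 3.98 ± 0.345 SE). In bulk libraries, more cells with a transcript and more transcript per cell cannot be told apart.

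Cd44 was nearly absent from control libraries. Control libraries held 10 and 6 reads in WT females, 2 and 0 in NL4-/- females, 3 and 8 in WT males and 1 and 0 in NL4-/- males, at most 12.1 CPM. The 4 groups of phagocytosis libraries, in the same order, had 75, 20, 45 and 52 reads, then 61, 40, 45 and 28, then 72, 48, 56 and 14, then 44, 33, 34 and 67, with levels of 18.1 to 132 CPM and a median of 72.5 CPM. The states did not overlap, although the lowest phagocytosis library, male WT phagocytosis 4, was close to the highest control, and that library was also the lowest of its state in Adam8 and had the highest microglial marker sum of its state, 35900 CPM. With so few control reads the fold is best read from pooled reads: 7.41 times in WT females (192 against 16 reads, exact 95% interval 4.45 to 13.2), 36.3 times in NL4-/- females (174 against 2, 9.9 to 302), 6.33 times in WT males (190 against 11, 3.46 to 12.9) and 57.6 times in NL4-/- males (178 against 1, 10.2 to 2290). The 4 ratios are far apart, but their intervals all overlap. All 3 NL4-/- control reads of Cd44 came from 2 of the libraries rich in satellite reads, female NL4-/- control 1 and male NL4-/- control 1, and the other 2 NL4-/- controls held 0. Without the 3 such libraries, 1 control library was left in each of 3 groups. With 0 control reads taken as at most 3 counts, Cd44 was at least 15.1-fold higher in NL4-/- females and at least 9.67-fold higher in NL4-/- males. In WT males it was 9.64 times higher (190 against 3 reads, 3.25 to 47.1). These values hold no spread between control libraries, and the 2 limits also leave out the error of the phagocytosis reads. Over all groups the pooled ratio was 10.5 (7.32 to 15.7) with them and 11.4 (7.24 to 19) without them.

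Of all genes tested, 85 (0.867%) had no overlap between the 16 phagocytosis and 8 control libraries, and Adam8 and Cd44 are the 2 members among them. Cd44, at most 12.1 CPM in control, passed the filter on low counts through phagocytosis libraries alone, so its lack of overlap is a description only. In the edgeR quasi-likelihood fit over all genes, 1332 of 9803 (13.6%) passed an adjusted p of 0.05 in this comparison, 8.41% higher and 5.18% lower, with a median log2 fold change of -0.00524 over all genes tested. Among the members 5 of 9 passed, 4 higher (Adam8, Cd44, Adamts1, Adam9) and 1 lower (Adam10), with a median of 0.65; since this comparison was in view when the list was made, nothing is read from that count.

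**Figure D1:**
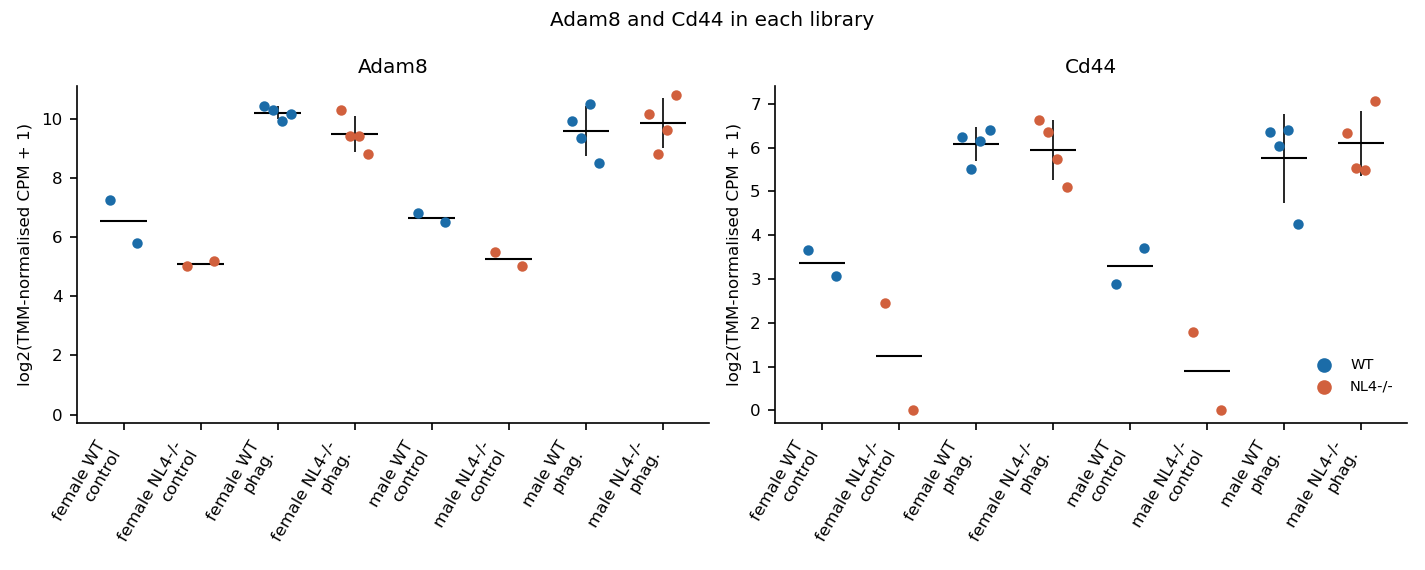
Level of Adam8 (left) and Cd44 (right) in each library, as log2 of TMM-normalised CPM plus 1, by sex, genotype and state; horizontal bars are group means of the plotted values and vertical bars the SD for groups of 4. All 16 phagocytosis libraries lie above all 8 controls, at 366 CPM or more for Adam8 and 18.1 CPM or more for Cd44, and the 4 NL4-/- controls lie below the 4 WT controls in both panels.

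Among the other sheddases, Adam10 was lower in most phagocytosis libraries by TMM-normalised CPM. Control libraries had 75.5 to 127 CPM with a median of 81.4, and phagocytosis libraries 41.6 to 116 CPM with a median of 61.7. Of 16 phagocytosis libraries 13 were below every control, and the highest, male NL4-/- phagocytosis 2 at 116 CPM, was inside the control range. The difference was log2 -0.47 ± 0.154 (SE), and -0.34 without the 3 control libraries rich in satellite reads. Adam17 overlapped throughout, with 104 to 189 CPM (median 146) in control and 73 to 190 CPM (median 121) in phagocytosis, log2 -0.16 ± 0.141, which turned to 0.05 with length-scaled counts. Adam17 shares its position in part with Iah1 on the opposite strand, which held 540 reads in all libraries, and reads of the overlap cannot be told apart without strand. Adam9 had 13.5 to 59.8 CPM (median 36) in control and 27.2 to 87.8 CPM (median 56.1) in phagocytosis, with 6 phagocytosis libraries above every control and a difference of log2 0.65 ± 0.204.

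The secreted and matrix proteases differed less than Adam8. Adamts1, which cuts proteoglycans such as versican, had 25.9 to 147 CPM in control and 86 to 219 CPM in phagocytosis, log2 0.65 ± 0.163. Its 2 low controls, 40.5 and 25.9 CPM, were both female NL4-/-, and the other 6 controls had 89.6 CPM or more. Mmp14 had 33.7 to 68.3 CPM (median 50.7) in control and 37.5 to 114 CPM (median 70.7) in phagocytosis, with 9 of 16 libraries above every control and a difference of log2 0.50 ± 0.191. Its inhibitor and partner Timp2 overlapped, 79 to 133 CPM in control and 57.3 to 139 CPM in phagocytosis, log2 -0.18 ± 0.145; the overlapping gene on the same strand, Cep295nl, held 56 reads in all libraries.

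Fn1 was the most variable member in the phagocytosis libraries. It ran from 12.3 to 58.1 CPM (median 27.8) in control and from 5.16 to 145 CPM (median 43) in phagocytosis, a coefficient of variation of 75.1% there against 24.9 to 42.3% for the other 8 genes. Both the lowest and the highest of the 24 libraries were male WT phagocytosis libraries, number 4 and number 1. The difference between the states, log2 0.74 ± 0.517, was 1.30 with phagocytosis libraries numbered 1 and 2 alone and -0.32 with those numbered 3 and 4 alone, so its direction depended on which were taken.

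The same split by number was present in Mmp14 and Adam9. Phagocytosis libraries numbered 1 and 2 had 70.8 ± 36.7 CPM of Fn1 and those numbered 3 and 4 had 24.8 ± 14.6 CPM (SD, n = 8 each). Mmp14 had 83.6 ± 18.7 against 56.8 ± 15.0 CPM, and Adam9 67.5 ± 15.7 against 45.0 ± 14.0 CPM. The other members, Adam8 among them with 980 ± 341 against 960 ± 494 CPM, were closer to equal. The labels do not say that the numbers mark a batch. Against the same controls, the state difference of Mmp14 was log2 0.77 with numbers 1 and 2 and 0.18 with 3 and 4, and that of Adam9 was 0.95 and 0.33, whereas Adam10 kept -0.46 and -0.47.

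**Figure D2:**
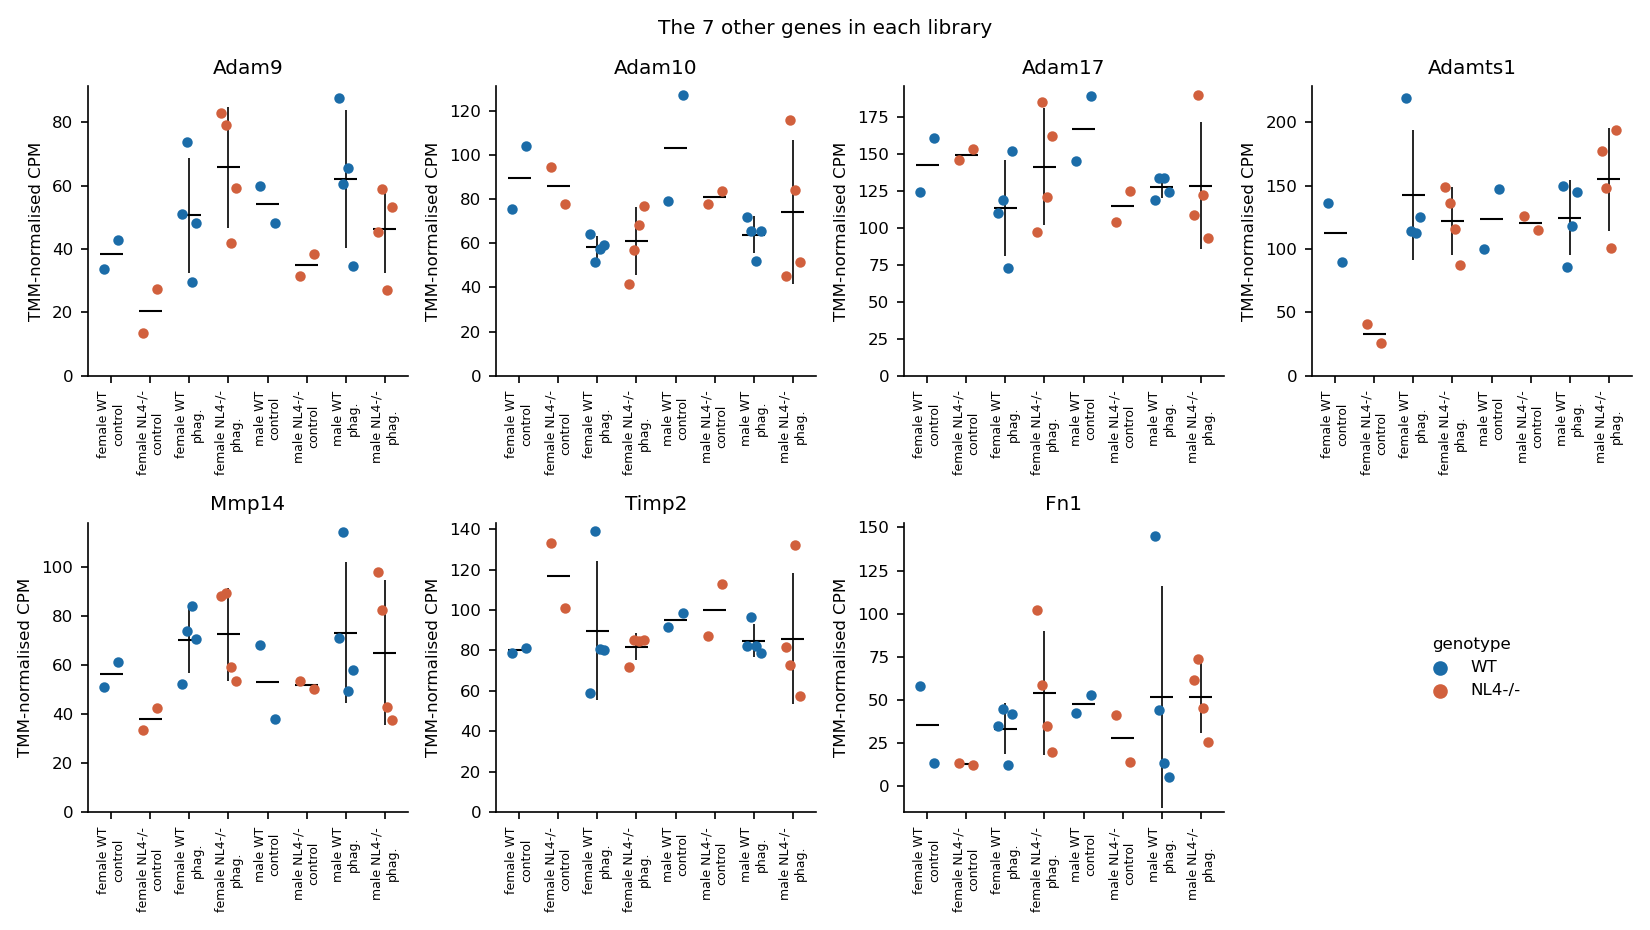
Level of the other 7 genes in each library in TMM-normalised CPM, by sex, genotype and state, with group means as horizontal bars and the SD as vertical bars for groups of 4. Adam10 lies lower in most phagocytosis libraries, Adamts1 is low in the 2 female NL4-/- controls at 40.5 and 25.9 CPM, and Fn1 has the widest spread.

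Per length, the order of the 9 genes changed between the states, as mean deposited TPM summed over a gene's transcripts shows. In control Adam17 led with 32.0 ± 12.6 TPM (SD, n = 8), followed by Adam10 at 23.3 ± 7.09, Timp2 at 20.9 ± 7.77, Adam8 at 18.1 ± 19.9, Adamts1 at 16.6 ± 8.49 and Mmp14 at 15.7 ± 9.07 TPM. Adam17 was above Adam10 in 7 of 8 libraries, but its lead was smaller than its own SD. From Adam10 to Mmp14 these neighbours were within 1 SD of each other, and Adam8 was above Adamts1 in 4 of 8 libraries. Adam9 (8.56 ± 5.38) and Fn1 (8.09 ± 3.93) did not differ beyond their spread either, while Cd44, at 1.26 ± 1.14 TPM, was below Fn1 in 8 of 8 libraries. In phagocytosis Adam8 was at 255 ± 122 TPM (SD, n = 16) and above Adam17, at 41.4 ± 11.9 TPM, in 16 of 16 libraries. Below Adam17, Adamts1 (29.2 ± 10.4), Timp2 (24.1 ± 7.06), Adam10 (23.1 ± 6.94), Mmp14 (22.6 ± 6.77) and Cd44 (22.5 ± 12.4) were within their spread of one another, and Adam9 (15.7 ± 4.66) and Fn1 (11.6 ± 6.86 TPM) came last. The mean TPM of Adam10 was close to equal between the states, and that of Adam17 was higher in phagocytosis, whereas mean CPM was lower there for both. TPM values carry no TMM normalisation. Across the alternative fits, length-scaled counts among them, the state difference of Adam10 stayed between log2 -0.47 and -0.34. A level in TPM depends on which of a gene's transcripts the quantifier chose, so that of Fn1, whose reads went largely to short transcripts, is the least firm.

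Within each sex and genotype the state difference had the same direction for Adam8 in all 4 groups: log2 3.52 ± 0.645 (SE) in WT females, 4.51 ± 0.722 in NL4-/- females, 3.10 ± 0.642 in WT males and 4.80 ± 0.741 in NL4-/- males. Without female WT control 1, the control library highest in Adam8, the female WT value was 4.43. Adamts1 had 1.90 ± 0.368 in NL4-/- females, against 0.36 ± 0.304 in WT females, 0.00 ± 0.306 in WT males and 0.35 ± 0.317 in NL4-/- males. Adam9 likewise had its largest value in female NL4-/-, 1.60 ± 0.434, against 0.21 to 0.39 in the other groups. Of all genes tested 57 (0.581%), 45 (0.459%), 32 (0.326%) and 59 (0.602%) passed in WT females, NL4-/- females, WT males and NL4-/- males, and 2, 3, 1 and 2 members did, from which nothing is read.

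**Figure D3:**
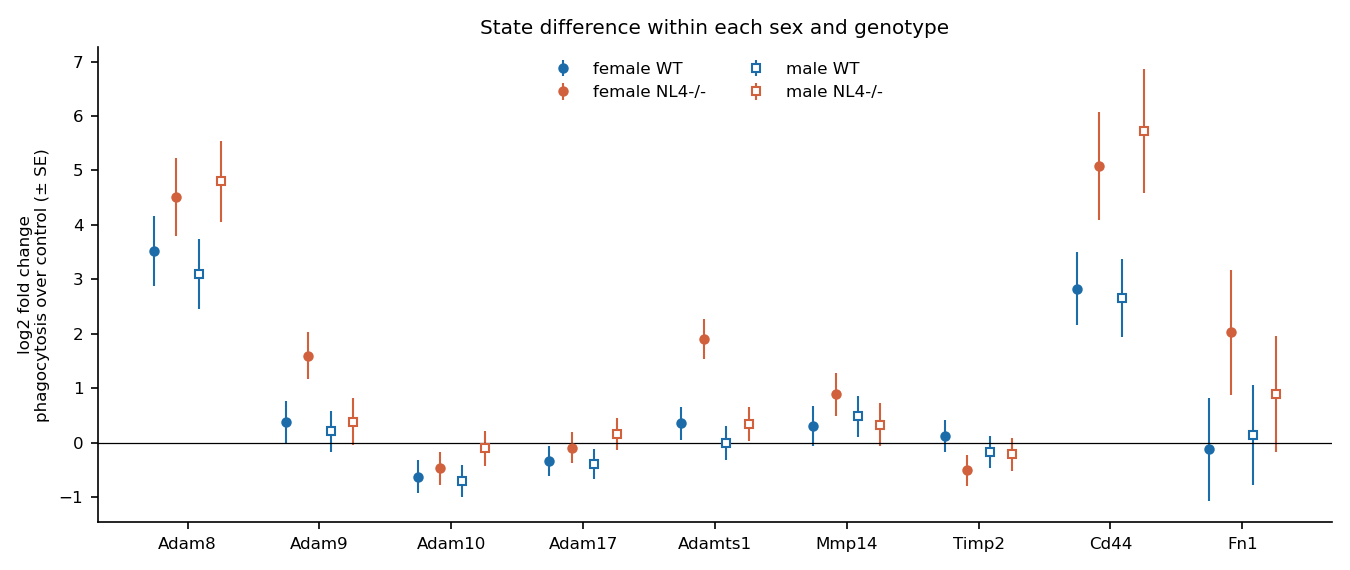
Fitted log2 fold change of phagocytosis over control for the 9 genes within each sex and genotype (filled, female; open, male), with SE bars. The values of Adam8 lie between 3.10 and 4.80; those of Cd44 in NL4-/- rest on 2 and 1 control reads and depend on the prior count of the fit.

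The study's title names the neuroligin-4 knockout, and the comparison of NL4-/- with WT asks how it bears on these genes. In control libraries 8 of the 9 genes were lower in NL4-/- in the mean of both sexes, with a median log2 fold change of -0.73, and 0 of 9 passed the adjusted p. Over all genes tested the median was 0.004425, so lower and higher genes were close to equal in number there. The 9 values share the same control libraries and are not independent, so nothing is read from the count of 8. No gene passed among all 9803 tested (0%, with 331 at an unadjusted p under 0.05; DESeq2 called 2). The 4 members with an unadjusted p under 0.05 were Adamts1 (log2 -0.92 ± 0.271 SE), Adam8 (-1.52 ± 0.531), Cd44 (-2.58 ± 1.08) and Adam9 (-0.73 ± 0.343), each with an edgeR adjusted p of 1. Timp2, at 0.30 ± 0.239, was the one with a higher value in NL4-/-. Since genotype values may have taken part in the choice of members, nothing is read from the 4 unadjusted p-values.

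Adam8 was at 152, 55.2, 111 and 90.8 CPM in the 4 WT controls and at 31.5, 35.5, 43.7 and 31.2 CPM in the 4 NL4-/- controls, with no overlap. Cd44 likewise did not overlap, with 27 reads in the WT and 3 in the NL4-/- controls, a pooled ratio of 6.44 (exact 95% interval 1.98 to 33.2). Among all genes tested 357 (3.64%) had no overlap between these 4 and 4 libraries. The NL4-/- controls were also shallower, with 421107 to 715944 reads against 450119 to 884019 in WT, and 2 of the 3 libraries rich in satellite reads were NL4-/- controls; their part in the result was not tested. Without those 3 libraries Adam8 had log2 -1.69 and Adamts1 -0.96. Cd44 then had 0 reads in the NL4-/- controls, so that its fitted fold depends on the prior count and is not given. Without female WT control 1 the value of Adam8 was -1.07. The summed level of 14 monocyte markers was 31.8 to 69.1 CPM in WT and 30.8 to 35.8 CPM in NL4-/- controls, and that of 14 border-associated macrophage markers 74.4 to 100 and 47.7 to 89.3 CPM; their part in the difference was not tested.

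Adamts1 was lower in NL4-/- than in WT in female controls, short of the adjusted threshold, and not in male ones. Female WT controls had 136 and 89.6 CPM and female NL4-/- controls 40.5 and 25.9 CPM, a difference of log2 -1.80 ± 0.399 (SE; edgeR adjusted p = 0.315). Male WT controls had 100 and 147 CPM and male NL4-/- controls 126 and 115 CPM, log2 -0.04 ± 0.364 (edgeR adjusted p = 1). Across alternatives the adjusted p of the female value ran from 0.00215, with no filter on low counts, to 1. Male controls exceeded female controls by log2 1.02 ± 0.271 in the mean of both genotypes (edgeR adjusted p = 0.613), and the state difference was smaller in males by 0.95 ± 0.322 (edgeR adjusted p = 1). For sex, 0 of 9 members passed in control or in phagocytosis, against 3 (0.0306%) and 4 (0.0408%) of all genes tested. The genotype values of the sexes were not tested against each other. The values of Adamts1 for genotype in female controls, for sex in control and for state by sex rest on the same 2 low libraries.

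In phagocytosis libraries the genotypes were close. The 9 members ran from log2 -0.18 ± 0.304 (Adam8) to 0.32 ± 0.532 (Fn1) in the mean of both sexes, 5 above and 4 below 0, with 0 of 9 passing and a smallest unadjusted p of 0.316. Of all genes tested 0 passed in edgeR (0%; 500 at an unadjusted p under 0.05; DESeq2 called 1). Adam8 was -0.63 ± 0.431 in females and 0.28 ± 0.429 in males, a difference between the sexes of 0.90 ± 0.608 that did not pass (edgeR adjusted p = 0.993). The male value was -0.12 without male NL4-/- phagocytosis 4, the library highest in Adam8 at 1810 CPM, and -0.04 with libraries numbered 1 and 2 alone, so its sign rests on single libraries.

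The difference of the state effect between genotypes was tested directly. It was larger in NL4-/- than in WT for 8 of 9 members, by log2 1.34 ± 0.611 for Adam8, 2.66 ± 1.13 for Cd44 and 0.95 ± 0.322 for Adamts1, the 3 members with an unadjusted p under 0.05, each with an edgeR adjusted p of 1. No gene passed among all tested (0%; 276 at an unadjusted p under 0.05; DESeq2 called 1). Over all genes tested the median of this difference was log2 0.006336, against 0.7 over the 9 members. The test shares its control libraries with the genotype comparison in control, so both show the same low NL4-/- control values. It also holds the state values on which members were chosen, so nothing is read from the 3 unadjusted p-values. Without female WT control 1 the value of Adam8 was 0.89. That of Cd44 rests on the 3 NL4-/- control reads.

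**Figure D4:**
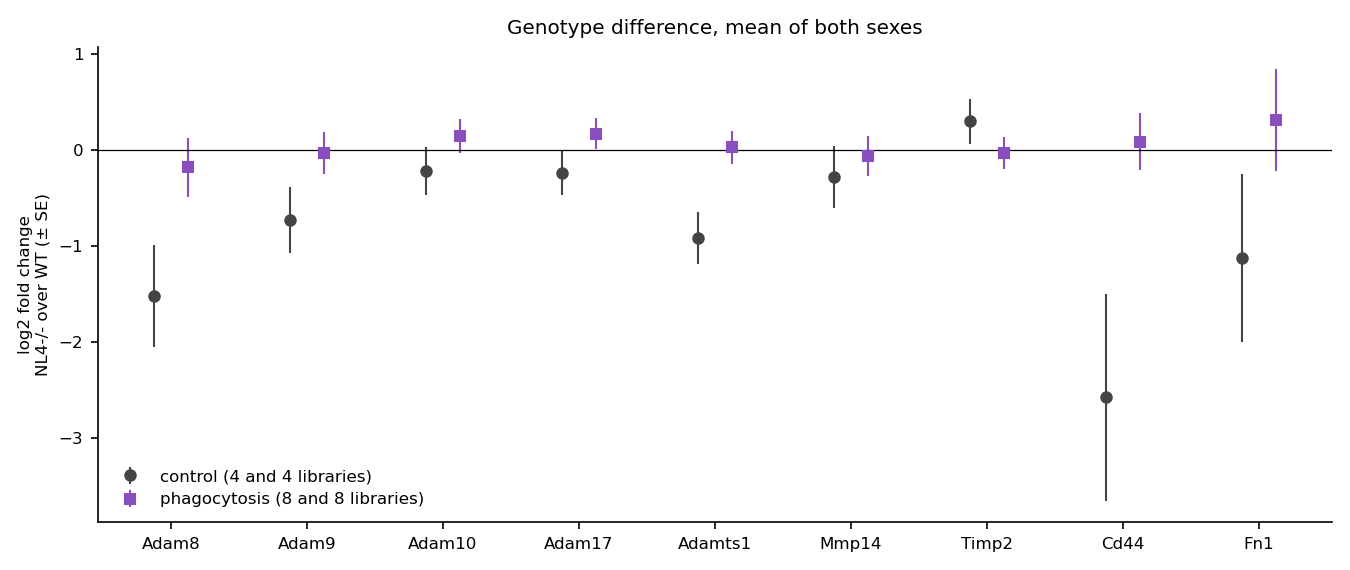
Log2 fold change of NL4-/- over WT for the 9 genes, as the mean of both sexes, in control (circles, 4 and 4 libraries) and phagocytosis libraries (squares, 8 and 8), with SE bars. In control 8 of 9 values are below 0, from -0.22 to -2.58, and in phagocytosis all 9 lie between -0.18 and 0.32; none passed the adjusted p.

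Among the 16 phagocytosis libraries, those high in Adam8 were high in Cd44 and low in Adam10 by CPM. Relations were not computed on TPM. On log2 CPM, Adam8 and Cd44 had Pearson r = 0.807 (permutation test, adjusted p = 0.00112) and Spearman rho = 0.694 (permutation test, adjusted p = 0.0193), with p-values adjusted over the 8 relations of Adam8 to the other members. Without the 2 libraries farthest from the median of Adam8 the r was 0.642. Within the libraries numbered 1 and 2 it was 0.401 and within those numbered 3 and 4 it was 0.969, so the closeness rests on the latter. Adam10 had r = -0.664 (permutation test, adjusted p = 0.017) and rho = -0.679 (permutation test, adjusted p = 0.0193), -0.736 without the 2 farthest libraries, and -0.749 and -0.709 within the 2 sets of numbers. Male NL4-/- phagocytosis 4, with 1810 CPM of Adam8, had 132 CPM of Cd44 and 51.4 CPM of Adam10. Male NL4-/- phagocytosis 2, with 454 CPM of Adam8, had 45.2 and 116 CPM. In deposited TPM, Adam10 was at 40.8 in the former and 23.5 in the latter, the reverse order. The former held 1.52% and the latter 16.26% of satellite reads, the lowest and highest shares of the state, while male WT phagocytosis 4, lowest in Adam8, held 1.72%; the part of this in the relations was not tested. Adam17 had r = -0.541, which did not pass (permutation test, adjusted p = 0.0804), and rho = -0.618, which did (permutation test, adjusted p = 0.0329); the r was -0.889 within the libraries numbered 1 and 2 and -0.352 within those numbered 3 and 4. For Adam9, Adamts1, Mmp14, Timp2 and Fn1 neither measure passed, with r from -0.188 to 0.430. The share of all genes tested that would pass the same test against Adam8 was not determined. Nothing particular to these members is therefore read from the relations that passed.

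**Figure D5:**
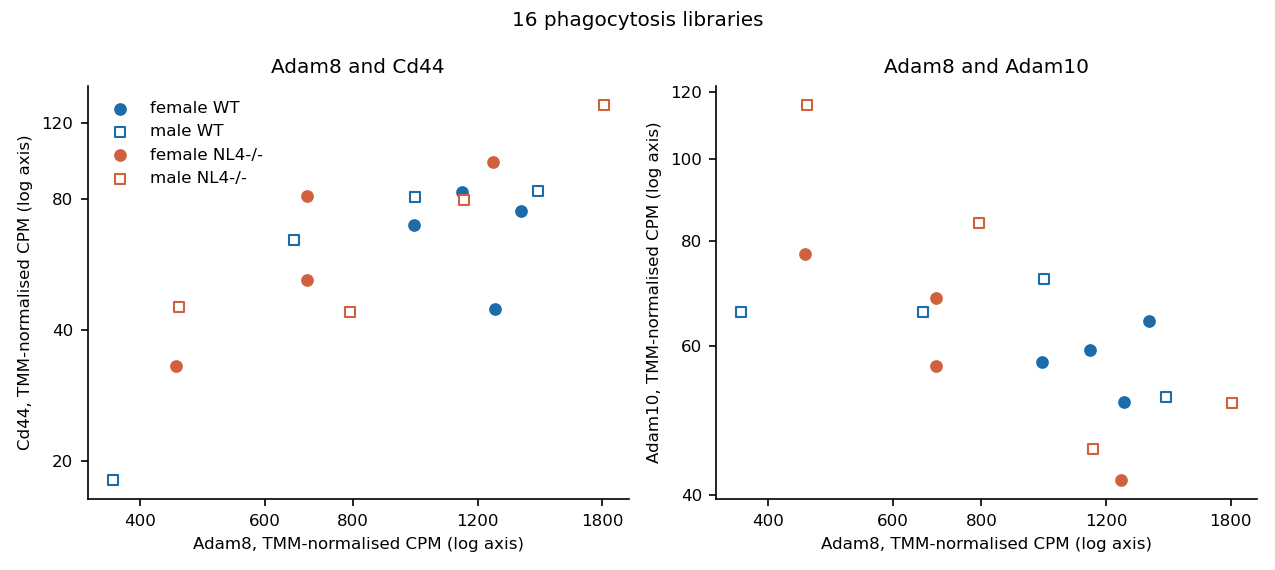
Adam8 against Cd44 (left) and Adam10 (right) in the 16 phagocytosis libraries, in TMM-normalised CPM on log axes, each point 1 library marked by sex and genotype. Cd44 rises with Adam8 (r = 0.807) and Adam10 falls (r = -0.664).

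Over all 24 libraries the genes most like Adam8 by Pearson r of log2 CPM, of 9234 named genes, were Vim (0.976), an intermediate filament protein, Plin2 (0.970), which coats lipid droplets, Cd44 (0.966), Lgals3 (0.965), the lectin galectin-3, and Lilr4b (0.963), an inhibitory receptor of myeloid cells. These values mostly follow the state difference that all these genes have. After the 8 group means were taken out, the likest were Cd14 (0.835), a lipopolysaccharide co-receptor, Ass1 (0.834), an enzyme of arginine synthesis, and Vim (0.788). Cd44 ranked 21 of 9234 on that measure (0.732), and Adam10 ranked 9228 (-0.736), near the opposite end. The points share library depth and composition.

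Most reads of Adam8 were assigned to 2 coding transcripts that differ in few bases. Adam8-202 starts 14 bases earlier than Adam8-201 and has 3 more bases, CAG, at the start of exon 2. The 24 bases of exon 1 and the first bases of exon 2 at that junction are shown, with the extra bases in capitals (chromosome 7, minus strand, exon 2 from 139991446 in Adam8-201 and from 139991449 in Adam8-202).
Adam8-201: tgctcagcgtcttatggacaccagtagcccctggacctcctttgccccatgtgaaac
Adam8-202: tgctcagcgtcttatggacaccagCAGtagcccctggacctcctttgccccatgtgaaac

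In control libraries 0 of 359 Adam8 reads were assigned to Adam8-202. In phagocytosis 27.7% of 10501 reads were, in 14 of 16 libraries, with 31.4% ± 28.9 (SD, n = 16) per library and a range of 0 to 80%. Adam8-201 had 86.4% ± 12.1 (SD, n = 8) in control and 60.1% ± 29.9 in phagocytosis. Since most reads fit both transcripts, a share is the quantifier's estimate and not a count of reads over the junction, so that the 0 in control sets no limit on the share of the form, and the SD over the phagocytosis libraries was nearly as large as its mean. The same kind of assignment gave Adam9 reads to Adam9-201 in 4 of 8 control libraries and to Adam9-204 in 4 of 8, so no split between near-identical transcripts is read here.

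The coding and intron-retaining forms of Fn1 and the forms of Cd44 are further apart. Retained-intron transcripts took 81.2% ± 11.7 of Fn1 reads in control (SD, n = 8) and 63.9% ± 24.8 in phagocytosis (SD, n = 16), and the full coding transcripts 14.8% ± 13 and 35.3% ± 25.3. By TPM, which weighs reads by length, the retained-intron share of Fn1 was 84.7% and 78.9% and the full coding share 5.06% and 16.6%, so that the states lie closer on that scale. Pooled, 30 of 154 control reads of Fn1 and 244 of 541 phagocytosis reads were assigned to full coding transcripts. Cd44-203, the form with 9 exons, which lacks the variable exons, held 61.7% of 734 reads in phagocytosis and 40.5% of only 30 reads in control. Cd44-201 and Cd44-207 reach 1406 bases farther at the 3′ end than Cd44-203, so reads of the long end go to forms with more exons whether or not those exons were read. Adam10, Timp2 and Adamts1 had 99.4%, 96.5% and 94.3% of their phagocytosis reads in a single transcript.

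The rest of the protease system was mostly not expressed at a level that could be tested. Of 10 other membrane ADAM genes 1 was tested, Adam15, at 672 ± 70.1 CPM in control and 720 ± 96.6 in phagocytosis (log2 0.10 ± 0.101, edgeR adjusted p = 0.574). Of 23 other ADAMTS genes 3 were tested, of 19 other matrix metalloproteinases 2 and of 7 inhibitors 2, and 0 of these passed in the edgeR fit over all libraries. Mmp12, macrophage elastase, had 23.1 ± 8.21 CPM in control and 49.6 ± 43.0 CPM in phagocytosis (edgeR adjusted p = 0.199), and Mmp2, which Mmp14 activates, 72.8 ± 15.9 and 51.6 ± 17.1 CPM (log2 -0.48, edgeR adjusted p = 0.0811). Mmp2 passed with phagocytosis libraries numbered 1 and 2 only (edgeR adjusted p = 0.00885), without female NL4-/- phagocytosis 4 (edgeR adjusted p = 0.0402) and without male WT phagocytosis 4 (edgeR adjusted p = 0.0495).

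The lists that follow were chosen with earlier results known, and their counts stand beside 8.41% called higher and 5.18% called lower over all genes tested. Of 13 genes that bring sheddases to the surface or mature them 7 were tested and 2 rose, with a median log2 of 0.07. They were Rhbdf2, the iRhom that carries Adam17 to the surface, from 56.1 ± 15.7 to 110 ± 36.4 CPM (log2 0.99 ± 0.191, edgeR adjusted p = 0.000913), and Furin, which removes the prodomain of many proteases, from 59.0 ± 17.6 to 80.7 ± 18.5 CPM (0.45 ± 0.152, edgeR adjusted p = 0.0432). The call for Furin was lost with each of 9 single libraries left out, with no expression filter, with length-scaled counts (log2 0.22, edgeR adjusted p = 0.528), without the 3 libraries rich in satellite reads (0.29, edgeR adjusted p = 0.417) and with libraries numbered 3 and 4 only (0.41, edgeR adjusted p = 0.179). Of 11 genes of secretases and related intramembrane proteases 8 were tested and 1 rose, Psen2, a catalytic subunit of gamma-secretase, from 37.3 ± 7.93 to 66.6 ± 20.6 CPM (0.82 ± 0.204, edgeR adjusted p = 0.00665). With libraries numbered 3 and 4 only Psen2 had 0.60 and did not pass (edgeR adjusted p = 0.0846).

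Known shed proteins went both ways. Of 29 listed, 25 were tested, 5 rose (App, Axl, Cxcl16, Jag1 and Tnf) and 5 fell (Csf1r, F11r, Il6ra, Mertk and Sema4d), with a median log2 of -0.09. Jag1, a Notch ligand, went from 2.07 ± 1.85 to 25.3 ± 13.9 CPM (log2 3.69 ± 0.489). At most 4.79 CPM in control, it passed the filter on low counts through phagocytosis libraries alone. Its call is therefore a description only. Jag1 had 9 control reads in all, and its pooled ratio was 13.9 (290 against 9 reads, exact 95% interval 7.21 to 30.6). Its fitted value was 4.67 without male NL4-/- control 2 and 4.33 without male WT control 1. Cxcl16, a chemokine released by Adam10, went from 172 ± 76.2 to 445 ± 118 CPM (1.41 ± 0.184, edgeR adjusted p = 9.68e-06), and App, the amyloid precursor protein, from 127 ± 19.8 to 250 ± 82.5 CPM (0.96 ± 0.16, edgeR adjusted p = 0.000147). Axl, a receptor that binds dying cells through a bridging ligand, had 1.54 ± 0.342 (edgeR adjusted p = 0.00322), a call lost with length-scaled counts and without the 3 libraries rich in satellite reads.

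Fibronectin is bound by integrins and syndecans and crosslinked by transglutaminase. Of 13 fibronectin receptors and partners 10 were tested, 5 rose (Itga5, Plaur, Sdc3, Sdc4 and Tgm2) and 2 fell (Itgb3 and Itgb5), with a median log2 of 0.73. Itga5, the alpha chain of the fibronectin receptor, went from 75.3 ± 33 to 314 ± 101 CPM (log2 2.14 ± 0.199, edgeR adjusted p = 6.09e-08). Sdc4, a heparan sulfate co-receptor, went from 74.2 ± 48.6 to 302 ± 108 CPM (2.24 ± 0.253, edgeR adjusted p = 4.13e-06). Tgm2, a crosslinking enzyme, had 1.32 ± 0.183 and Plaur, the urokinase receptor, 1.40 ± 0.221.

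Of 18 genes of hyaluronan and of Cd44 partners 11 were tested and 2 rose, Ezr, which links Cd44 to actin, from 7.44 ± 6.61 to 38.0 ± 21.5 CPM (log2 2.47 ± 0.469, edgeR adjusted p = 0.0011), and Stab1, a hyaluronan-binding scavenger receptor, from 1030 ± 216 to 1460 ± 203 CPM (0.52 ± 0.106, edgeR adjusted p = 0.00147). Of 49 other matrix proteins 13 were tested, 4 rose (Tgfbi, Postn, Spp1 and Ecm1) and 1 fell (Sparc), with a median of 0.49. Postn and Ecm1, at most 8.59 and 12.8 CPM in control, passed the filter through phagocytosis libraries alone, so their calls are description only. Tgfbi, a matrix protein that integrins bind, went from 91.5 ± 28.2 to 399 ± 183 CPM (log2 2.10 ± 0.239, edgeR adjusted p = 4.13e-06). The calls for Stab1, Spp1 and Ecm1 were lost without the 3 libraries rich in satellite reads (edgeR adjusted p = 0.0631, 0.0991 and 0.166), and that for Ecm1 also with length-scaled counts (edgeR adjusted p = 0.0878).

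Markers of other cells were summed in the same libraries. The summed level of 14 border-associated macrophage markers was 47.7 to 100 CPM in control and 113 to 441 CPM in phagocytosis, with 13 of 14 higher, that of 14 monocyte markers 30.8 to 69.1 and 26.8 to 324 CPM, with 13 of 14 higher, and that of 12 neutrophil markers 8.72 to 78.0 and 17.9 to 283 CPM, with 7 of 12 higher. Fibroblast and pericyte markers were at 10.9 to 22.4 and 26.8 to 143 CPM, with 11 of 14 higher, and endothelial markers at 526 to 970 and 676 to 948 CPM, with 8 of 14 higher. The endothelial gene Cldn5 had 0 reads in every library, and the neutrophil genes Ly6g and Mmp8 had 0 reads in control and 3 and 7 in phagocytosis. Neuronal markers stood at 5.91 to 13.4 and 12.6 to 109 CPM, with 10 of 12 higher, oligodendrocyte markers at 123 to 193 and 171 to 371 CPM, with 7 of 12 higher, and astrocyte markers at 57.2 to 141 and 78.2 to 150 CPM, with 11 of 12 higher and a median of 103 CPM in both states. Single genes held much of some sums: mean levels in control and phagocytosis were 31.3 and 116 CPM for Siglec1 among the border-associated macrophage markers, 2.02 and 32.4 CPM for Uchl1 among the neuronal ones, and 2.00 and 24.1 CPM for Cspg4 and 5.12 and 21.9 CPM for Postn among those of fibroblasts and pericytes. Slc1a3, at 89.5 and 60.9 CPM, held most of the astrocyte sum. It was the only astrocyte marker with a lower mean in phagocytosis, so the sum does not show the other 11. Bsg, at 437 and 524 CPM, and Eng, at 231 and 193 CPM, held most of the endothelial sum. Cxcr2, at 23.3 and 29.5 CPM, and Lcn2, at 7.09 and 37.5 CPM, held much of the neutrophil sum. Monocytes and fibroblasts also express Cd44 and Fn1, and the Ly6C-CD11b+Fcrls+ sort is meant to leave both out. The part of any of the cell types above in the members' values, those of Adam8 among them, was not tested.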

How the data were processed

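RNA was measured in 24 libraries of sorted mouse microglia. Per the file headers, the authors' files hold for each transcript an expected count of reads (not normalised, and not always whole), a TPM value and lengths, in the columns that salmon and like quantifiers write. Quantifier version, index and read filtering: not given in the sources used here. Of 116945 transcripts 116023 matched GENCODE vM21 (GRCm38), 99.67% of them with the same version; the 922 others, with 0.274 to 0.379% of the reads, were dropped. Deposited expected counts were summed per gene and rounded, and deposited TPM values were summed per gene for the order of levels and for length-scaled counts.

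Genes were tested with edgeR 4.0.16 (R 4.3.3; quasi-likelihood F test, robust dispersions, TMM) on the 9803 genes that passed its expression filter (minimum count 10). The fit over all 24 libraries had 8 group means without covariates, and its spread is shared by groups of 2 and 4. P-values were two-sided and adjusted by Benjamini-Hochberg over all genes tested, called below 0.05. The SE of a log2 fold change (prior count 0.125) was worked back from the F statistic. Genotype differences are NL4-/- minus WT and sex differences male minus female. Marker sums are scaled to the library total alone, and 1 listed microglial marker is not reported here. Pooled ratios have exact 95% intervals, and the limit for 0 reads uses 3 counts. Permutation tests of relations drew 100000 resamples of log2 CPM with a prior count of 2. On simulated counts for the state comparison (9502 genes), 87% of 100 genes changed by 1 log2 unit and 100% of 100 changed by 2 were recovered, with 6 false among 193 called. The changed genes were drawn from those with more reads, so the recovery does not cover genes with few reads. Differences in make-up between libraries, such as satellite reads, were not simulated.

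The members and the gene lists were chosen with earlier results of these data known. All members are named; for each list the rule takes the tested genes lowest in adjusted p for state, at most 4, and at most 2 in a list with no call. Further called genes are given by name only, chosen after their values were seen. Likeness to Adam8 names the 5 highest Pearson r over 24 libraries and the 3 highest after group means were removed, without predicted genes. DESeq2 1.42.0, RLE size factors, no filter, a replicate block, length-scaled counts and left-out libraries were the alternatives; the mean of both sexes for genotype, phagocytosis libraries 1 and 2 alone and a crossed block were added after the data were seen. The labels do not say that the replicate numbers pair samples, and the main fit does not pair them. Controls have only the numbers 1 and 2, so in that fit an effect of number would be partly mixed with state.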

Additional observations from a re-analysis of the deposited data

Results flagged for a closer look

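In groups of 4 libraries, 1 library stood far from the other 3 by Dixon's test in 2 of 36 combinations of gene and group, about the number that chance gives at 1 in 20 groups. Adamts1 in female WT phagocytosis 1 was at 219 CPM, above the 113 to 125 CPM of the other 3 libraries of that group. Timp2 in female NL4-/- phagocytosis 1 was at 71.9 CPM, below the 84.7 to 85.4 CPM of the other 3.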

How the results depend on the processing

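In the state comparison (1332 genes called), 782 were called with phagocytosis libraries 3 and 4 only and 410 without the 3 control libraries over 20% satellite-like, of which 389 are shared with the 1332. Single libraries left out gave 781 (without female WT control 2) to 1508. State within female WT (57 called), female NL4-/- (45), male WT (32) and male NL4-/- (59), in this order, gave 267, 178, 97 and 178 with DESeq2 and 269, 176, 99 and 160 with no expression filter. Phagocytosis libraries 1 and 2 only gave 119, 315, 94 and 157. Libraries 3 and 4 only gave 152, 18 and 51 in the first 3 of these. Length-scaled counts gave 33 for WT females and 19 for WT males. Without the 3 satellite-rich controls the counts were 3 for NL4-/- females, 0 for WT males and 1 for NL4-/- males. Single libraries left out gave 1 to 86, 3 to 70, 0 to 58 and 1 to 66.

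Genotype within female control, male control, female phagocytosis and male phagocytosis (0 called in each) gave 11, 8, 19 and 7 with no expression filter. DESeq2 called 3, 5 and 3 in the first 3 of these, libraries 3 and 4 only gave 4, 1, 4 and 1, and libraries 1 and 2 only gave 1 in female control, 1 in male control and 1 in male phagocytosis. Length-scaled counts gave 1 in female control, as did leaving out the 3 satellite-rich controls. In the mean of both sexes, genotype in control and in phagocytosis (0 called in each) gave 2 and 1 with DESeq2, 20 and 20 with no filter, 6 and 2 with libraries 3 and 4 only, and 2 and 1 with 1 and 2 only. Sex in control (3 called) and in phagocytosis (4) gave 12 and 8 with DESeq2, 15 and 36 with no filter, and 12 and 2 with libraries 3 and 4 only; sex in phagocytosis gave 2 with length-scaled counts, and sex in control 0 without the 3 satellite-rich controls. The interactions of state by genotype, state by sex and genotype by sex in phagocytosis (0 called in each) gave 1, 1 and 2 with DESeq2, 3, 2 and 5 with no filter and 3, 2 and 1 with libraries 1 and 2 only, and the last gave 1 with libraries 3 and 4 only. Single libraries left out gave 0 to 2 for genotype within female control and within male control, 0 to 1 within female phagocytosis, 0 to 1 for genotype in control, 0 to 1 for state by genotype and for state by sex, and 2 to 6 for sex in control.

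Same-numbered libraries had correlations of deviations of -0.141 to 0.176, and not every library correlated best with its own number. The labels do not say that the numbers pair libraries. With the replicate block the state comparison called 1646 genes, and state within female WT, female NL4-/-, male WT and male NL4-/- 293, 104, 61 and 167. The male WT and male NL4-/- controls had a correlation of -0.117; with their numbers crossed, the block called 0 genes for genotype within male control.

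Among members' values, the fitted state difference of Cd44 (4.08) was 5.81 without the 3 satellite-rich controls, and those within female NL4-/- (5.08) and male NL4-/- (5.73) were 8.49 and 8.67; the NL4-/- controls then have 0 reads, so these values depend on the prior count and are no bound. Single libraries left out gave 3.77 to 4.93, 3.83 to 8.46 and 4.87 to 8.66 for Cd44. The genotype difference of Adam8 in male phagocytosis (0.28) reversed to -0.04 with libraries 1 and 2 only and ran from -0.12 (without male NL4-/- phagocytosis 4) to 0.65 when single libraries were left out. Among other genes, under length-scaled counts the state difference of Adam15 (0.10) was -0.10 and that of Adamts16 (-0.49) was 0.01. With the replicate block Mmp2 passed (edgeR adjusted p = 0.00862). The cause of these moves was not tested, apart from settings that test fewer samples. At this depth a difference in Cd44, with 30 control reads in all, is known only within wide intervals.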
